A study of Homo sapiens with 8 samples.

Results

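Chromosome 13 was represented on the arrays by 11562 exon rows and 6000 junction rows, together 17562 of the 914585 rows of the deposited values. A row is 1 probe set, a group of short probes whose signals are summarised into 1 value. An exon probe set lies within an exon or a part of one, and a junction probe set spans the joint between exons of a spliced transcript. Rows were taken where the identifier began with PSR13 (exon) or JUC13 (junction), followed by 6 digits. Over the whole series there were 573909 exon and 339146 junction rows. The chromosome was chosen because the signal of its rows was lower in shPLK1 than in shNS cells, so every value of that contrast below is a description, and nothing is supported by it. The rows carry no gene names, and no gene name was given to a row or a run of rows here.

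The cells were A375, a human melanoma line, in which a stably integrated TRIPZ lentiviral vector expressed an shRNA. In 4 samples, named shPLK1, it targeted PLK1, and in 4 samples, named shNS, it was a nonsense control. Both groups received doxycycline, which switches the vector on, for 48 h before total RNA was taken. The labels list 6 shPLK1 constructs joined by "or" and do not say which one these cells carried, and the Methods and the design text give 3 replicates where the labels give 4. The Methods name 1 shNS and 1 shPLK1 line of A375, made earlier, for the arrays. They describe the study's other lentiviral shNS and shPLK1 lines as polyclonal pools, and do not say whether the array lines were. The shRNA and the history of the line it is in therefore cannot be told apart, and the spread between arrays is that between cultures of a line. Melanoma markers and the level of PLK1 itself were not examined here. The exon and junction rows have no gene names, and the gene names deposited apart from them were described for chromosome 13 only.

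PLK1 is a serine/threonine kinase that drives entry into and passage through mitosis. Human chromosome 13 is acrocentric, so its protein-coding genes lie on the long arm, and it is comparatively poor in genes. Genes there include receptors and adhesion molecules of neural and vascular cells as well as regulators of growth signalling. RMA, the method by which the array values were made, forces the arrays to a common distribution, so a lower signal of 1 chromosome means lower relative to the rest of the array. In bulk RNA, fewer cells of a kind and less RNA per cell cannot be told apart.

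Gene names were available for 18 of 23 transcript clusters with chromosome 13 identifiers in a second deposited table, which compares 5d with NS. A transcript cluster groups the probe sets of 1 transcribed locus. The largest decreases among the named clusters were those of SLITRK6, a transmembrane protein of neurite growth, and CLDN10-AS1, an antisense transcript of the claudin gene CLDN10. The largest increases were those of TRPC4, a cation channel, and PCDH17, a protocadherin of cell adhesion. The RefSeq promoter windows of these 4 genes, from 250 bases before to 50 bases after the annotated start in GRCh38.p14, are shown because they differ in base composition between the clusters that changed most. Capitals mark CG dinucleotides, which read the same on both strands and cannot overlap each other.
SLITRK6: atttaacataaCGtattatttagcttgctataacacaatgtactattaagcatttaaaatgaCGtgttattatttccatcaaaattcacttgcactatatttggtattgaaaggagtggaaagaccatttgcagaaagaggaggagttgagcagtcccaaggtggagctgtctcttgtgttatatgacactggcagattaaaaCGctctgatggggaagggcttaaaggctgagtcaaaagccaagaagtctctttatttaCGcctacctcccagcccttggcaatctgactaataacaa
CLDN10-AS1: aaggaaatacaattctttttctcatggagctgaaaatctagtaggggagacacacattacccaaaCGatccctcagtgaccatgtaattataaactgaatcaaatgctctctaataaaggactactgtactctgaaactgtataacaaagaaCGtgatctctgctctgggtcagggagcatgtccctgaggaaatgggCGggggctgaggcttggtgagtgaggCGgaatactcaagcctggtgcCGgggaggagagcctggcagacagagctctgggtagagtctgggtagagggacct
TRPC4: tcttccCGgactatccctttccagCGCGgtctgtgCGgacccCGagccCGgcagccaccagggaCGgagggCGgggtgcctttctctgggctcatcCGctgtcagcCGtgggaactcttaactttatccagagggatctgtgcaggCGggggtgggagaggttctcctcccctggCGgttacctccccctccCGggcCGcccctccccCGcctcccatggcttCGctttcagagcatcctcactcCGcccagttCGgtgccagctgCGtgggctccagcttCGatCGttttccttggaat
PCDH17: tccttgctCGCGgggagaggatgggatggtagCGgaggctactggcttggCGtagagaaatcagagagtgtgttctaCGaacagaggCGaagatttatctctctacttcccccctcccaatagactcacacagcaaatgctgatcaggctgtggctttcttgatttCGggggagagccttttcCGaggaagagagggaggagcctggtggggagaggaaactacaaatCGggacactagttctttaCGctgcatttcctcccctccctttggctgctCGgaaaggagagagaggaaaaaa

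The SLITRK6 window lies at chr13:85799370-85799669 on the minus strand, is 38.7% G and C and holds 4 CG. The CLDN10-AS1 window lies at chr13:95533861-95534160 on the minus strand, is 48.7% G and C and holds 5 CG. The TRPC4 window lies at chr13:37869723-37870022 on the minus strand, is 65.3% G and C and holds 21 CG. The PCDH17 window lies at chr13:57631494-57631793 on the plus strand, is 52.7% G and C and holds 11 CG. Over 35116 RefSeq promoter windows of the same length the median was 58.7% G and C and 14 CG, and 29.6% of them held no more CG than SLITRK6 while 39.5% held at least as many as TRPC4. Windows were found for 15 of the 16 named genes, 21 windows in all, with 4 to 46 CG. CG content did not sort the genes by direction. Windows of lower genes held 4 to 46 CG and windows of higher genes 11 to 41. KLF5, which was lower, had windows with 4 and with 37 CG, and FARP1, which was also lower, had windows with 27 and 46. These counts are a description of the sequence, and methylation was not measured.

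The shift was taken over bright rows, those whose log2 signal averaged 7 or more across the 8 arrays. For each array it is the median of the row values after each row's own mean was subtracted, less the same median over 23 chromosomes (1 to 22 and X). Over 2596 exon rows of chromosome 13 the shift was -0.111, -0.157, -0.102 and -0.132 log2 units in shPLK1 arrays 1 to 4, against 0.123, 0.110, 0.106 and 0.154 in shNS arrays 1 to 4. The groups did not overlap, and the range within a group was 0.055 in shPLK1 and 0.048 in shNS. The difference was -0.25 (SE 0.016), a signal ratio of 0.842. Over 1432 junction rows the shift was -0.127, -0.201, -0.102 and -0.143 in shPLK1 arrays, against 0.152, 0.125, 0.120 and 0.180 in shNS arrays. Here too the groups lay apart, and shPLK1 array 2 was the lowest for both kinds of row. The junction difference was -0.29 (SE 0.025), a ratio of 0.819. Exon and junction rows come from the same RNA on the same arrays and are not independent of each other.

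On the other 22 chromosomes the exon shift lay between -0.07 on chromosome 1 and 0.38 on chromosome 18. The next lowest was -0.03 on chromosome 21 and the next highest 0.09 on chromosome 15. The junction shift gave the same order at both ends, with -0.08 on chromosome 1, -0.05 on chromosome 21, 0.10 on chromosome 15 and 0.42 on chromosome 18. Chromosome 13 was thus the lowest of the 23 for exon and for junction rows, which is what it was chosen for.

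**Figure D1:**
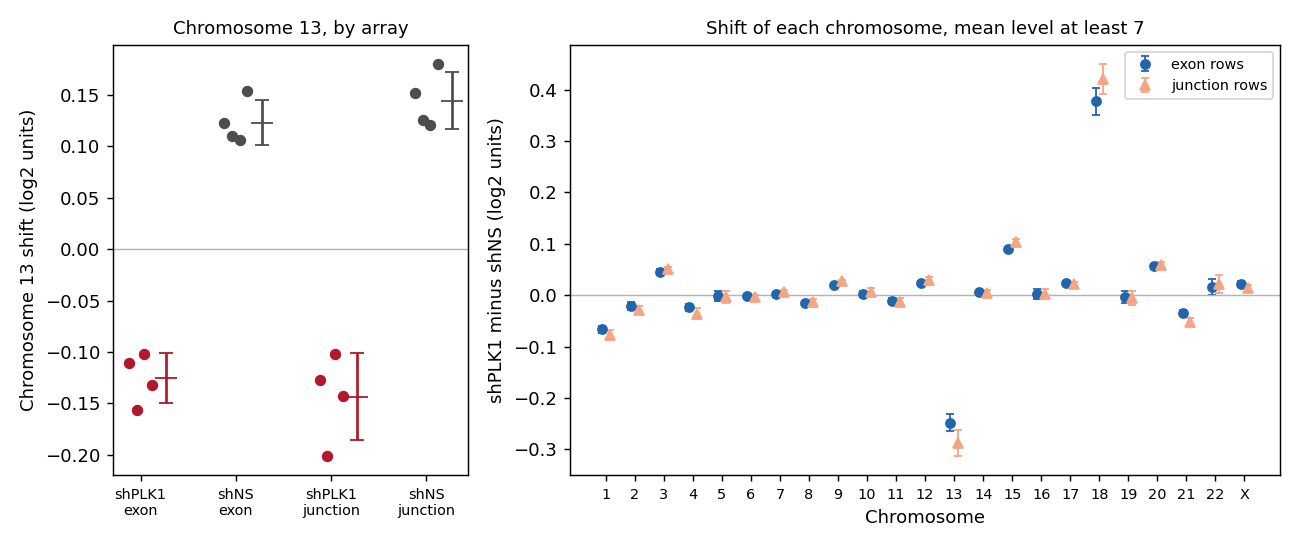
Left, the chromosome 13 shift in log2 units of each array (points, 4 per group) with mean and SD (bars), for exon and junction rows. All 4 shPLK1 arrays lie below 0 and all 4 shNS arrays above it. Right, shPLK1 minus shNS for each chromosome with its SE; chromosome 13 is at -0.25 for exon rows and chromosome 18 at 0.38.

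The difference varied with signal level. For exon rows it was -0.03 below a mean of 3, -0.06 from 3 to 4, -0.08 from 4 to 5, -0.13 from 5 to 6, -0.19 from 6 to 7, -0.25 from 7 to 8, -0.29 from 8 to 9 and -0.31 from 9 to 10. It was smaller again, -0.18 (SE 0.022), over the 376 rows with a mean of at least 10. In these level classes the values are medians of row values minus row means, not centred on other chromosomes. Exon rows of the other 22 chromosomes stayed between -0.02 and 0.01 in every class. The 4 shPLK1 arrays lay below the 4 shNS arrays in each exon class from 3 upwards and overlapped with them below 3, where shPLK1 spanned -0.065 to -0.002 and shNS -0.035 to 0.069. Junction rows went from -0.05 below a mean of 3 to -0.32 from 8 to 9 and were at -0.26 from 10 upwards. Their groups overlapped below 5 and lay apart from 5 upwards. The array's 23 background control probe sets had means from 1.36 to 10.8 with a median of 2.98, so the upper limit of the dimmest class lies about at their median.

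**Figure D2:**
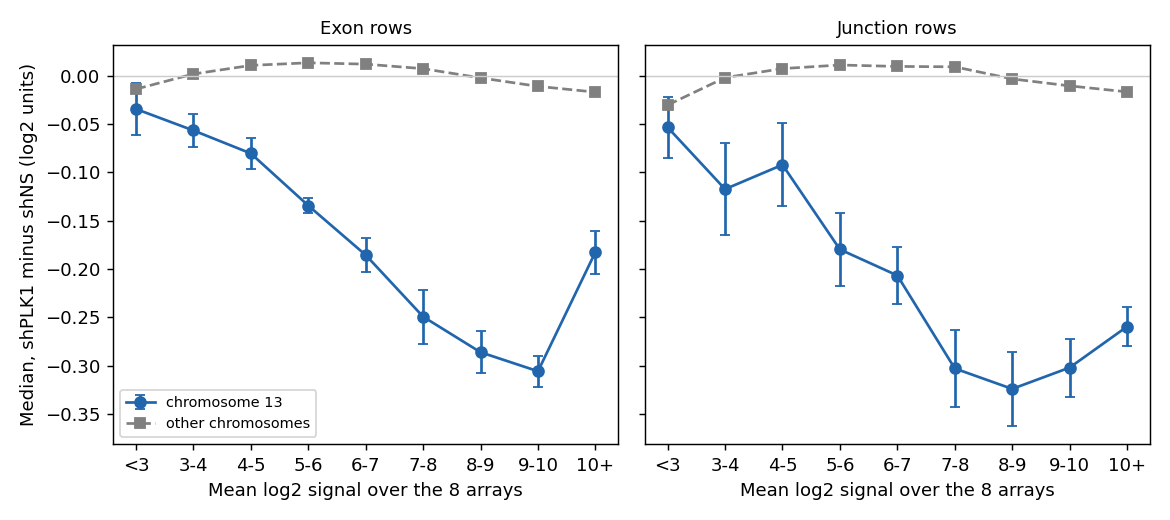
Mean of the shPLK1 array medians less that of the shNS array medians, in log2 units (vertical axis), against the mean log2 signal over the 8 arrays (horizontal axis). Exon rows are on the left and junction rows on the right. Circles with SE are chromosome 13 and squares the other chromosomes; chromosome 13 reaches -0.31 for exon rows from 9 to 10 and -0.32 for junction rows from 8 to 9.

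Chromosome 13 rows were dimmer than those of the other chromosomes, with a median mean level of 4.63 log2 units over its exon rows against 5.48 elsewhere. Of its exon rows 22.5% had a mean of at least 7, against 29.1% elsewhere. The spread within groups was like that of other rows at the same brightness, with a median SD of 0.164 against 0.159. Among the 2596 bright exon rows, 82.0% were lower in shPLK1, against 50.5% on the other chromosomes. The interquartile range of the differences of bright exon rows was 0.40 log2 units, against 0.58 on chromosome 18 and 0.20 to 0.27 on the remaining 21 chromosomes. The differences on chromosome 13 were thus spread more widely than on those 21 chromosomes. Rows more than 2-fold lower in shPLK1 made up 2.85% of the bright exon rows, against 0.94% elsewhere, and rows more than 2-fold higher made up 1.04%, against 0.96% elsewhere. For junction rows, 84.1% were lower, against 51.1% elsewhere. A difference of more than 2-fold downwards was seen in 2.65% of them, against 0.99% elsewhere, and was more frequent on chromosome X, at 3.35%.

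To see whether the difference came from 1 stretch, the bright rows were placed in 24 bins of equal size along the identifier number. That this number follows the position on the chromosome was not shown by the files. The clusters of the second table have a numbering of their own. In it the 7 named plus-strand clusters numbered 49 to 378 had RefSeq starts that rose with the number. So did the 7 named minus-strand clusters numbered 517 to 863. Named clusters with higher numbers broke this order. TC13000904.hg.1 came first of the named genes along RefSeq. TC13001641.hg.1, at place 13 of that order, was numbered before TC13001719.hg.1, at place 6. A bin is therefore a stretch of the numbering, and that it is 1 stretch of the chromosome was not shown. All 24 exon bins were lower in shPLK1, from -0.42 (SE 0.03) in bin 1, numbers 1 to 701, to -0.10 (SE 0.03) in bin 10, numbers 4389 to 4824. In 23 of them, all but bin 10, the shPLK1 and shNS arrays did not overlap. Of exon bins of like size over the 23 chromosomes, 17 percent were lower in shPLK1 with no overlap. Bins 11 and 12 were also small, at -0.12 and -0.18. Bins 13 to 19 lay between -0.40 and -0.22, and bins 20 to 24 between -0.19 and -0.14. In the last 3 bins, numbers 9974 to 13573, only 14.0%, 9.02% and 6.95% of rows reached a mean of 7, against 19.1% to 42.0% in the earlier bins.

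The junction rows gave a like picture, with all 24 bins lower, from -0.45 (SE 0.03) in bin 5 to -0.10 (SE 0.03) in bin 22. The arrays of the groups overlapped in bin 22 alone. Lower bins with no overlap made up 14 percent of junction bins over the 23 chromosomes. Small differences stood also in bins 11, 12 and 14, at -0.13, -0.16 and -0.14. On the other chromosomes 48.0% of 1445 exon bins and 48.7% of 1560 junction bins were below 0. The chromosome 13 exon bins had a median of -0.24 and an SD of 0.092, beside an SD of 0.095 over the bins of the other chromosomes without chromosome 18. Only 15 exon bins elsewhere lay below that median, the lowest, at -0.98, on chromosome X.

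**Figure D3:**
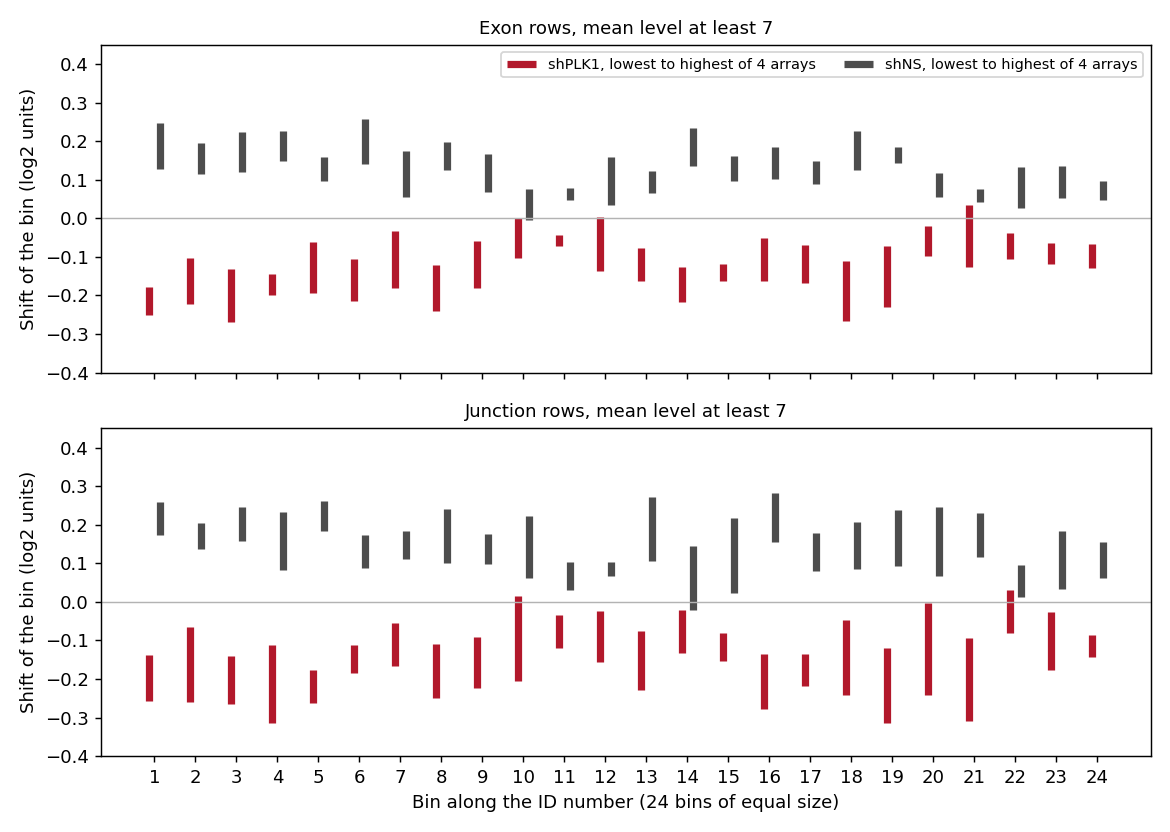
Shift in log2 units (vertical axis) of 24 bins along the identifier number (horizontal axis) for exon rows (top) and junction rows (bottom) with a mean of at least 7. Each bar runs from the lowest to the highest of 4 arrays, shPLK1 left and shNS right in each bin; the groups overlap only in exon bin 10 and junction bin 22.

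Single rows were compared with limma over all rows of a kind, and a row was called where its Benjamini-Hochberg adjusted p was under 0.05. Of the chromosome 13 exon rows, 836 (7.23%) were called lower and 124 (1.07%) higher in shPLK1. Over all exon rows 2.2 percent were called lower and 1.99 percent higher. Among the bright exon rows 429 (16.5%) were called lower and 31 (1.19%) higher, where 3.16 percent and 3.25 percent of all bright exon rows were. Arrays did not overlap in 1768 exon rows (15.3%) that were lower and 223 (1.93%) that were higher, beside 5.31 percent and 4.89 percent of all exon rows. Of the junction rows, 132 (2.2%) were called lower and 40 (0.667%) higher, beside 1.01 percent and 0.897 percent of all. Among bright junction rows 61 (4.26%) were called lower and 14 (0.978%) higher, beside 1.45 percent and 1.55 percent. Arrays did not overlap in 755 junction rows (12.6%) that were lower and 114 (1.9%) that were higher, beside 4.23 percent and 3.84 percent. These shares are given beside each other and nothing is read from them, as the chromosome was chosen on this contrast.

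The sizes of the called rows are given by direction. They were not taken over all rows, and nothing is read from them, as the chromosome was chosen on this contrast. The median of the exon rows called lower was -0.74 log2 units, with 243 (29.1%) past a 2-fold difference, and that of the rows called higher was 1.22, with 81 (65.3%) past it. For junction rows these medians were -1.50 and 1.80, with 102 (77.3%) and 37 (92.5%) past 2-fold. Just inside the limit lay exon row PSR13007688.hg.1 at -0.61 (SE 0.15), with means of 3.97 in shPLK1 and 4.57 in shNS, and just outside it PSR13009056.hg.1 at -0.60 (SE 0.15), with 6.32 in shPLK1 and 6.92 in shNS. For junction rows JUC13000948.hg.1 was just inside, at -0.95, and JUC13003669.hg.1 just outside, at -0.88.

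Called rows stood in part next to each other in the numbering. Runs were not counted on other chromosomes, so the shares below are not shown to be particular to chromosome 13. The 836 exon rows called lower formed 484 runs of neighbouring rows. Of these rows 323 (38.6%) stood alone and 158 (18.9%) lay in 24 runs of at least 5, the longest of 14 rows. The 124 rows called higher formed 62 runs, with 42 rows alone and 52 (41.9%) in 7 runs of at least 5. Junction rows called lower stood alone in 90 of 132 cases and their longest run was of 4 rows. Junction rows called higher stood alone in 19 of 40 cases, and their longest run, JUC13003882.hg.1 to JUC13003888.hg.1, was of 7 rows and so longer than any called lower.

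The longest run called lower was PSR13003657.hg.1 to PSR13003670.hg.1, 14 exon rows. Its mean was 6.58, 6.24, 6.22 and 6.29 in shPLK1 arrays, against 7.72, 7.92, 8.02 and 8.05 in shNS arrays, a difference of -1.59. Each of its 14 rows was past 2-fold, and the groups were far apart. The second run, PSR13005862.hg.1 to PSR13005873.hg.1 with 11 rows, averaged 3.14, 3.04, 2.63 and 2.90 in shPLK1 arrays, against 6.01, 6.07, 6.21 and 6.33 in shNS arrays. Its shPLK1 values lie at the level of the background controls, so the difference of -3.22 need not be its full size. The third, PSR13003678.hg.1 to PSR13003688.hg.1 with 10 rows, averaged 6.91, 6.98, 6.91 and 6.92 in shPLK1 arrays, against 8.34, 8.40, 8.39 and 8.32 in shNS arrays, a difference of -1.43. In the numbering it follows shortly after the longest run.

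Against the shift ran PSR13006653.hg.1 to PSR13006667.hg.1, the longest run called higher, with 11 exon rows. It averaged 8.96, 8.87, 9.01 and 8.79 in shPLK1 arrays, against 6.64, 6.64, 6.43 and 6.84 in shNS arrays, a difference of 2.27. All its rows were past 2-fold, and no array of 1 group came near the other group. The next, PSR13002775.hg.1 to PSR13002787.hg.1 with 9 rows, averaged 6.88, 6.84, 6.97 and 6.98 in shPLK1 arrays, against 5.07, 5.22, 5.15 and 5.13 in shNS arrays, a difference of 1.78. After these, 3 runs tied at 7 rows. The run PSR13001400.hg.1 to PSR13001409.hg.1 averaged 7.82, 7.49, 7.78 and 7.47 in shPLK1 arrays, against 6.30, 6.08, 6.39 and 6.50 in shNS arrays, a difference of 1.32. The run PSR13006638.hg.1 to PSR13006651.hg.1, which in the numbering lies just before the longest of them, averaged 8.82, 8.64, 8.97 and 8.81 in shPLK1 arrays, against 6.31, 6.23, 5.83 and 6.75 in shNS arrays, a difference of 2.53. The run PSR13009658.hg.1 to PSR13009670.hg.1 averaged 7.28, 7.42, 7.52 and 7.39 in shPLK1 arrays, against 5.72, 5.92, 5.53 and 5.79 in shNS arrays, a difference of 1.66. The groups lay apart in all of these. Bin 15, which holds 2 of the 5 runs, had the most exon rows called higher, 28 of its 322 rows, at a shift of the bin of -0.27. Bin 18 had 13 of 320, bin 20 had 13 of 522, bin 6 had 12 of 503 and bin 3 had 11 of 453. Bin 21 had 10 of 257 and bin 22 had 10 of 772. These counts are over rows of all levels, in which the bins are not of equal size. Over all exon rows 1.99 percent were called higher.

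**Figure D4:**
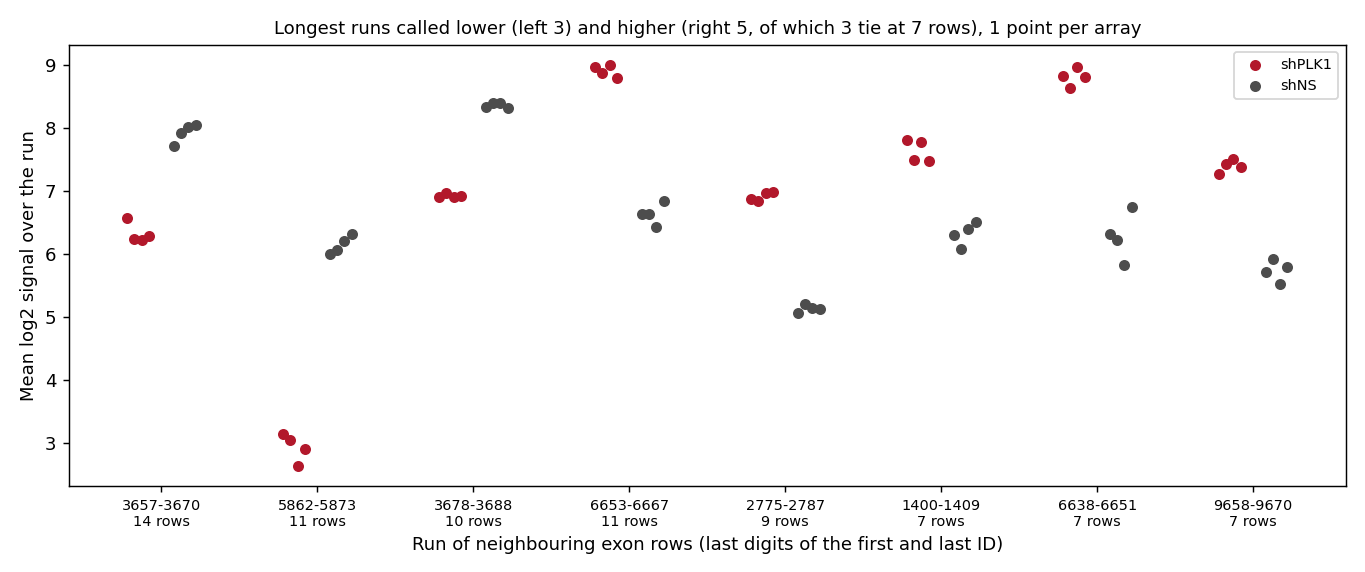
Mean log2 signal (vertical axis) of the 3 longest runs of exon rows called lower (left) and of the 5 longest called higher (right), 3 of which tie at 7 rows, 1 point per array, shPLK1 left and shNS right within each run. The groups lie apart in all 8 runs; the longest, 14 rows, is at 6.22 to 6.58 in shPLK1 and 7.72 to 8.05 in shNS.

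The exon row with the largest decrease was PSR13005872.hg.1, in the second of those runs. It read 4.08, 4.36, 3.85 and 4.19 in shPLK1 arrays, against 9.22, 9.19, 9.16 and 9.06 in shNS arrays, a difference of -5.04 (SE 0.13). The next 3 lowest, PSR13005875.hg.1 (-4.63, SE 0.17), PSR13005868.hg.1 (-4.58, SE 0.26) and PSR13005859.hg.1 (-4.32, SE 0.21), had numbers close by, so that all 4 lowest exon rows stood in 1 short stretch of the numbering. The shPLK1 means of these next 3 rows were 3.40, 2.80 and 2.62. They lie about at the median of the background controls, 2.98, so these differences need not be their full size. The 4 highest exon rows also stood together. PSR13006638.hg.1 read 8.57, 8.47, 9.16 and 8.83 in shPLK1 arrays, against 6.06, 6.33, 4.56 and 6.91 in shNS arrays, a difference of 2.79 (SE 0.41), with shNS array 3 well below its group. PSR13006648.hg.1 (2.75, SE 0.24), PSR13006665.hg.1 (2.71, SE 0.25) and PSR13006656.hg.1 (2.67, SE 0.16) followed, the last pair inside the longest run called higher.

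Of the junction rows, JUC13003518.hg.1 read 2.45, 2.57, 3.77 and 3.12 in shPLK1 arrays, against 8.74, 8.79, 8.98 and 8.57 in shNS arrays, a difference of -5.79 (SE 0.28). JUC13003497.hg.1 followed at -5.73 (SE 0.25). In both, all shPLK1 arrays were near the lower end of the array's range, so these differences too need not be their full size. The highest was JUC13005683.hg.1, with 5.37, 5.88, 6.35 and 5.47 in shPLK1 arrays, against 2.38, 2.34, 1.64 and 2.87 in shNS arrays, a difference of 3.46 (SE 0.30). JUC13003872.hg.1 was next, at 3.35 (SE 0.25). Here the shNS arrays are the ones at background level.

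The deposited cluster table gave gene names to both directions. Its heading 5d is not defined in the labels and was taken as shPLK1, the only other group. It lists only clusters that differ by more than 2-fold, and its values are the authors' bi-weight averages, 1 per group, with no spread. Of 23 chromosome 13 clusters 15 (65.2%) were lower and 8 higher, beside 291 of the other 468 (62.2%) that were lower. A difference of the size of the chromosome's shift could not enter this table. By gene, 9 of 16 were lower and 7 higher, and along the RefSeq gene order the direction changed 10 times.

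Among genes of receptors, channels and signalling, TRPC4 had the largest increase, with an authors' average of 8.70 for 5d and 6.49 for NS, 2.21 higher. FAM155A, now called NALF1, is an auxiliary subunit of the sodium leak channel NALCN, and its averages were 7.51 for 5d and 5.84 for NS. KCTD12, an auxiliary subunit of GABA-B receptors, had 6.36 for 5d and 5.23 for NS. These 3 were on the higher side. FLT1, the VEGF receptor 1, was lower, at 3.50 for 5d and 4.69 for NS, both of them dim. TNFRSF19, a receptor of the TNF receptor superfamily, was lower, at 5.01 for 5d and 6.43 for NS. SPRY2, a Sprouty protein that limits growth factor and ERK signalling, was lower as well, at 6.79 for 5d and 8.38 for NS.

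Genes of adhesion and neurite growth divided likewise. SLITRK6 had the largest decrease of all 23 clusters, with 4.07 for 5d and 6.73 for NS, a difference of -2.66. PCDH17 was higher, at 7.14 for 5d and 5.34 for NS. FARP1, which encodes a FERM-domain protein, was lower, at 6.93 for 5d and 8.36 for NS. Of regulators in the nucleus, FOXO1, a forkhead factor restrained by AKT, was lower, at 6.13 for 5d and 7.36 for NS, and so was KLF5, a zinc-finger factor, at 7.05 for 5d and 8.14 for NS. CCNA1, which encodes cyclin A1, was higher, at 7.18 for 5d and 6.12 for NS.

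Noncoding genes were also found on both sides. CLDN10-AS1 had 2 clusters that read almost alike, 4.75 and 4.83 for 5d, with differences from NS of -2.25 and -2.17. LINC00460, a long intergenic RNA, had 2 clusters as well, at 5.85 and 6.00 for 5d and at 7.03 and 7.10 for NS. LINC00350, which RefSeq calls TPTE2-AS1, was higher, at 5.58 for 5d and 4.30 for NS. The cluster named MIR622, which need not report the mature microRNA, was higher, at 8.86 for 5d and 7.81 for NS. The table classes it as coding, as it does 1 cluster each of CLDN10-AS1 and LINC00460. Of the 5 clusters without a symbol, TC13001024.hg.1 was higher, by 1.70, and the other 4 were lower, by 1.05 to 1.85.

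**Figure D5:**
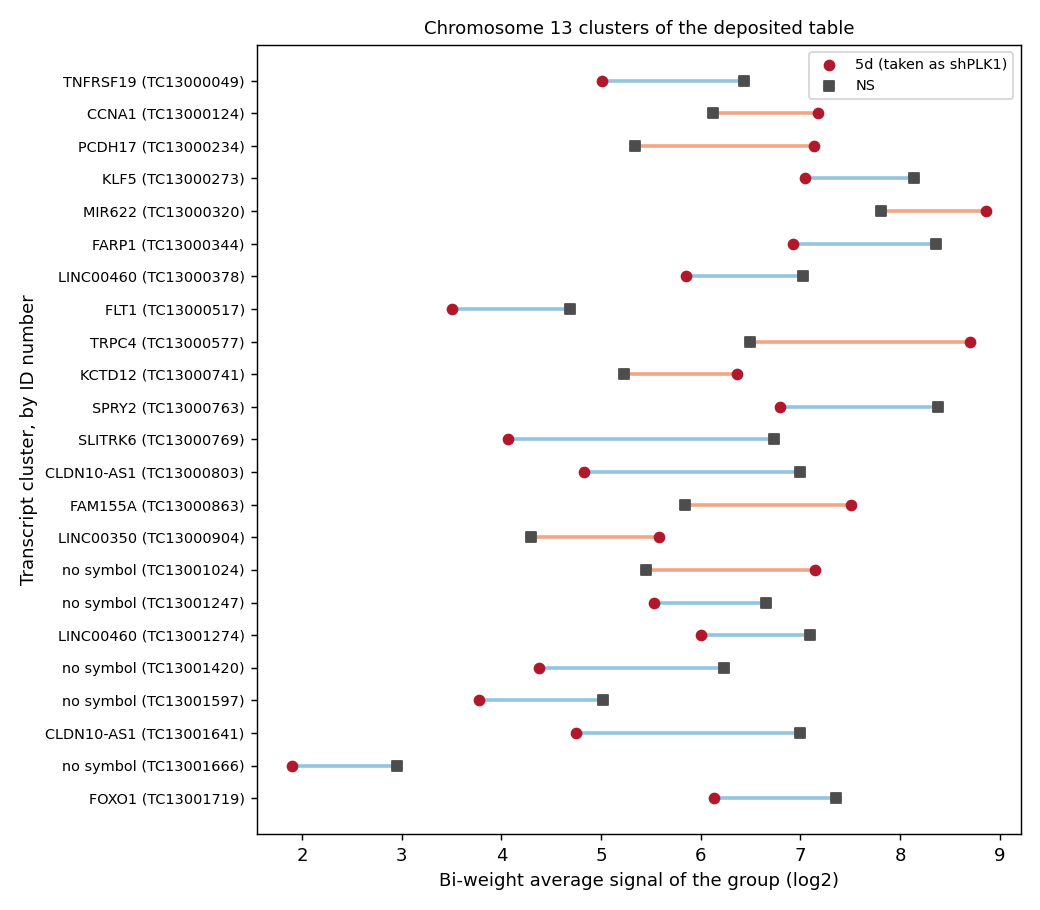
Authors' bi-weight average signal in log2 units (horizontal axis) of each of the 23 chromosome 13 clusters in the deposited table, ordered by identifier number from top to bottom. Circles are 5d, taken as shPLK1, and squares NS; blue lines mark the 15 lower clusters and orange lines the 8 higher ones.

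Lists of 71 chromosome 13 genes gave 7 members in the table, 5 lower and 2 higher. Of 10 melanocyte and neural crest genes 1 was in the table, SPRY2. Of 16 genes of the cell cycle, DNA repair and tumour suppression 1 was, FOXO1. The lists are not complete, as CCNA1, which was higher, and TNFRSF19, which was lower, are on none of them. Of 17 receptors, ligands and channels 2 were, FLT1 on the lower and TRPC4 on the higher side. Of 9 matrix and adhesion genes 1 was, PCDH17, of 7 neurite and synapse genes 1, SLITRK6, and of 8 transcription factors 1, KLF5. None of 4 noncoding genes was listed. By RefSeq class, 7 of the 68 protein-coding genes of the lists were in the table (10.3%), beside 12 of all 338 protein-coding genes of chromosome 13 (3.55%), and nothing is read from this, as the lists were written with earlier results of these data known. Genes of these lists that the table does not name were not analysed here.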

How the data were processed

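RNA of 4 shPLK1 and 4 shNS cultures was hybridised to Affymetrix Human Transcriptome Arrays. The authors processed the scans by RMA in the Transcriptome Analysis Console, and deposited 1 log2 signal per exon or junction row and array. A second deposited table holds log2 bi-weight averages of 5d and NS, besides folds and p-values of the authors' own comparison, which were not used. No column of per-sample values was left out.

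Groups came from the sample titles. Exon and junction rows were fitted apart with limma 3.58.1 in R 4.3.3, with group only, and p-values were adjusted by Benjamini-Hochberg over all rows of a kind. The fit was tested on simulated data. Shifts, bins and level classes have no test. Arrays give no read depth, so their number, 4 per group, limits the precision. Named were all 23 chromosome 13 clusters, the 4 exon and 2 junction rows lowest and highest among called rows without overlap, and the 3 longest exon runs in each direction, with ties for the third place kept. The chromosome, the gene lists and these rules were chosen with earlier results of these data known. Gene names were matched through RefSeq for 16 of 16 symbols. Level limit, centring, normalization, test, call rule, replicates and pairing were varied. The 5 clusters without a symbol were left unnamed.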

Additional observations from a re-analysis of the deposited data

How the results depend on the processing

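The shift of chromosome 13 was negative, and all 24 exon bins stayed below 0, under every alternative tried. The replicate block leaves the shift as it is. The 12 named rows kept their direction and call in 144 of 144 checks. They were picked as the most extreme called rows, and some settings cannot change their difference, so nothing is supported by this. Over rows of all levels the shift was smaller, -0.123 for exon and -0.175 for junction rows. The counts moved more. The 836 exon rows called lower became 528 by an ordinary equal-variance test and 256 with an unadjusted p under 0.05 and a fold over 2. They became 1447 with an unadjusted p under 0.01, and the 124 called higher became 79 by the ordinary test. Over all 573909 exon rows, the 12624 called lower became 8864, 6020 and 20883 under these settings in turn. The 11422 called higher over all exon rows became 7432 by the ordinary test. The 132 junction rows called lower became 203 and 478 under those unadjusted rules, and the 40 called higher became 69 and 81. Over all 339146 junction rows, the 3440 called lower became 5172 and 8337, and the 3041 called higher became 4670 and 7845. With a trended robust prior 387 were called lower, beside 6146 over all. Without rows below the median level 273 were, beside 4175 over all. Fitted together with exon rows, 248 junction rows were called lower, beside 14797 of all 913055 exon and junction rows. Leaving out 1 array gave 551 (without shPLK1 array 2) to 747 (without shPLK1 array 1) exon rows called lower, with 554 without shNS array 1. In these fits 9813, 11198 and 9859 of all exon rows were called lower. For junction rows it gave 86 (without shNS array 3) to 103 (without shPLK1 array 1) called lower, beside 2392 and 2925 of all junction rows. Same-numbered arrays did not deviate together (r = -0.37, 0.20, -0.15 and -0.18 over 166382 exon rows), so no pairing by number was seen. With 4 arrays per group this cannot show whether the arrays were handled in pairs. With the replicate number as a block, 498 exon rows were called lower and 113 higher, and 64 junction rows lower and 26 higher. Over all rows this block gave 9161 exon rows lower and 8077 higher, and 1829 junction rows lower and 1288 higher. The cause of these moves was not tested. Signals near the background controls limit the size of a decrease that can be read, and the spread covers only the 4 cultures of each line.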
